A study of Mus musculus with 70 samples.

Results

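The contrast described here asked which transcripts differed between HAB and LAB mice in the basolateral amygdala (BLA) in another way than in the central amygdala (CeA). HAB and LAB mice are lines bred from outbred CD-1 (ICR) animals for high and low anxiety-related behavior. For each spot of a spotted cDNA microarray, the log2 HAB/LAB ratio of the 10 CeA arrays was subtracted from that of the 10 BLA arrays, so a negative contrast means a lower HAB/LAB ratio in the BLA than in the CeA. These 20 arrays were chosen by their region label from 70 arrays of 7 regions, and 22824 probes were tested. All animals were untreated males of 10 weeks, but they were not naive to testing. Per the study's methods, mice were selected by their behavior on the elevated plus-maze and were killed after a tail-suspension test. For each line and region, tissue of 6 mice was pooled, and that RNA was amplified in 2 rounds. The HAB pool was labelled with Cy3 on 5 arrays and with Cy5 on the other 5 arrays of each nucleus, and the LAB pool of the same nucleus took the other dye. The tissue was a 1 mm punch on both sides of 200 µm sections, from -1.36 to -1.76 mm of bregma for the BLA, where the punch also held the lateral nucleus, and from -0.96 to -1.36 mm for the CeA. The 10 arrays of a nucleus repeat the same pair of RNA pools, so every p-value below measures the spread between hybridizations and not the spread between mice.

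The basolateral complex is a cortex-like structure built mainly of glutamatergic projection neurons and receives sensory input about threat. The central nucleus is a striatum-like structure of GABAergic neurons and holds the main output of the amygdala to the hypothalamus and brain stem. The amygdala lies near the temporal horn of the lateral ventricle, whose choroid plexus secretes cerebrospinal fluid and makes transthyretin, a carrier of thyroid hormone and retinol. How near each punch came to the ventricle is not given. A punch takes neurons, glia, vessels and whatever lies at its edge, so that fewer cells of a type and less RNA per cell cannot be told apart in these pools.

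The 20 arrays differed in brightness. Median Cy5 signal was 251.1 to 671.8 on the BLA arrays and 320 to 606.2 on 9 CeA arrays, but 2480 on the CeA array with HAB in Cy3 replicate 4. On the CeA array with HAB in Cy3 replicate 1, 25% of the probes were above the empty spots in the HAB channel. The day in the scan headers fell entirely within a region, with 7 and 3 arrays in the BLA and 8 and 2 in the CeA, so day and nucleus cannot be told apart. Of 17 measured genes of central GABAergic neurons none passed the test for a higher signal in the CeA than in the BLA (limma), so the CeA label rests on the position of the punch.

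The line difference of the BLA departed from that of the CeA for few transcripts, and those fell into 3 sets. Of 22824 probes, 49 (0.215%) passed the test of the contrast (limma, Benjamini-Hochberg adjusted p under 0.05), 45 with a lower ratio in the BLA (0.197%) and 4 with a higher ratio (0.0175%). In 9 of the 45 the BLA ratio was farther from 0 than the CeA ratio. This set held all 3 probes of transthyretin (Ttr), the brightest probe of autotaxin (Enpp2) and a probe of stem cell growth factor (Clec11a). In the other 36 the CeA ratio was farther from 0, and HAB was above LAB in the CeA. The 10 values of one nucleus lay entirely outside the 10 values of the other for 27 probes (0.118% of all). At an unadjusted p under 0.05, 1938 probes passed (8.49%). Across all probes, the BLA ratio and the CeA ratio were correlated at r = 0.09, a value over probes that share arrays and spot positions. The adjusted p of the last probe inside the threshold was 0.049 and that of the first outside was 0.0551.

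**Figure D1:**
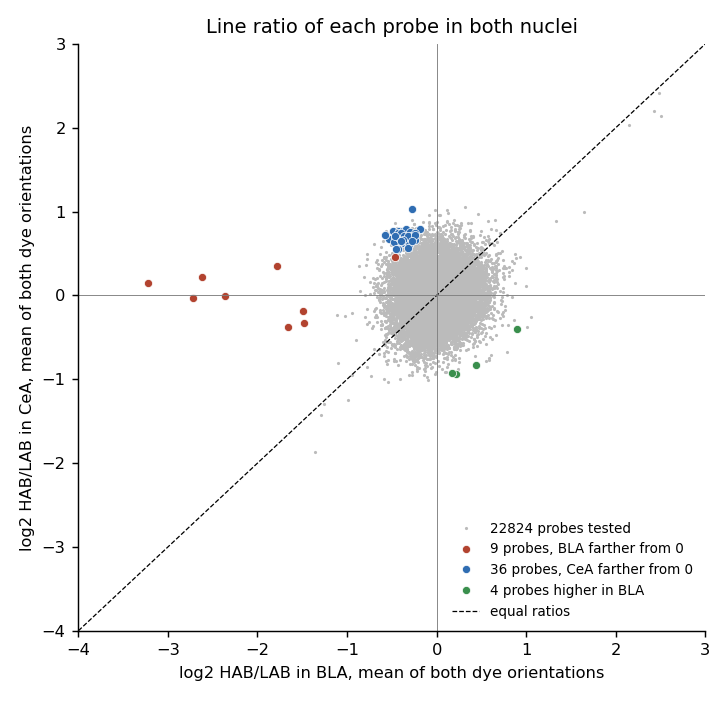
Mean log2 HAB/LAB in the BLA (x axis) against the CeA (y axis), with a point per probe and the 3 sets of probes past the test of the contrast in colour; the dashed line marks equal ratios. The 9 probes with the larger BLA ratio reach -3.22 on the x axis at a CeA ratio near 0, whereas the 36 probes with the larger CeA ratio form a compact group between 0.55 and 1.04 on the y axis.

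The largest contrast was that of Ttr. At the brightest Ttr probe (spot 4672), log2 HAB/LAB on the 10 BLA arrays had a lowest value of -3.91, a median of -3.35 and a highest value of -1.92. On the 10 CeA arrays the lowest value was -0.75, the median 0.02 and the highest 1.71. Every BLA array lay below every CeA array. The mean BLA ratio was -3.22 ± 0.21 (SE), and the contrast was -3.37 ± 0.30 (limma, adjusted p = 1.05e-06). On the scale of normalised log2 signal, the LAB pool of the BLA read 13.31 ± 0.34 (SD, n = 10 arrays) and the HAB pool 10.09 ± 0.71. The CeA pools read 7.81 ± 0.75 in HAB and 7.66 ± 0.66 in LAB. Thus, at this probe, the LAB pool of the BLA stood apart from the other 3 pools, and the HAB pool of the BLA also lay above both CeA pools. The BLA and CeA pools were hybridized on separate arrays, so hybridization and nucleus cannot be told apart in a level set across nuclei.

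The other Ttr probes also had lower ratios in the BLA. At spot 1480 the BLA arrays ran from -4.21 to -1.99 with a median of -2.58, and the CeA arrays from -0.70 to 1.05 with a median of -0.19. The mean BLA ratio there was -2.72, and the contrast was -2.68 ± 0.28 (limma, adjusted p = 1.03e-05). At spot 4453 the BLA arrays ran from -2.58 to -0.90 with a median of -1.75, and the CeA arrays from -0.33 to 1.49 with a median of 0.25. The mean BLA ratio was -1.79, and the contrast was -2.14 ± 0.24 (limma, adjusted p = 2.12e-05). Neither probe had overlapping nuclei. At spot 4453 the HAB pool of the BLA (8.92 ± 0.69) did not lie above the CeA pools (9.63 ± 0.86 in HAB and 9.27 ± 0.99 in LAB). The LAB pool of the BLA read 12.67 ± 0.36 at spot 1480 and 10.70 ± 0.62 at spot 4453.

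How far the Ttr ratios can be read depends on the distance to the empty spots of the array. A channel was first counted as above the empty spots when it passed their median plus 2 median absolute deviations, a limit that 25.1% of the empty spots themselves pass in the median channel. By this limit the HAB pool of the BLA was above on 10, 9 and 8 of 10 arrays at spots 4672, 1480 and 4453, and the LAB pool on 10 of 10 at each. In the CeA, spot 4672 was above on 1 array in HAB and 0 in LAB and spot 1480 on 3 and 1, so that their CeA ratios compare signals close to the empty spots and no fold is given for them. Spot 4453 was above on 9 and 8 CeA arrays. Under a stricter limit chosen after the data were seen, the percentile 95 of the empty spots, the LAB pool of the BLA remained above on 10, 10 and 3 arrays, while the HAB pool was above on 1, 0 and 0. For spots 4672 and 1480 the ratio within the BLA thus compares a LAB pool above the empty spots with a HAB pool near them, and at spot 4453 most channels of both pools were below the stricter limit. No fold is given for Ttr.

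**Figure D2:**
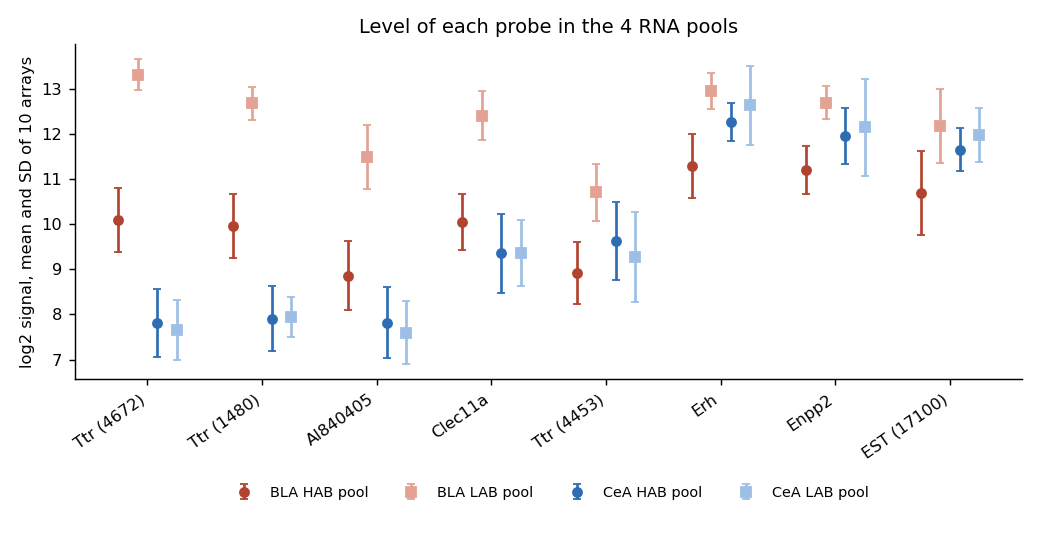
Normalised log2 signal (y axis) of probes past the test in the 4 RNA pools, as mean and SD of 10 arrays per pool. For Ttr spot 4672 the LAB pool of the BLA (13.31) lies above the HAB pool of the BLA (10.09) and both CeA pools (7.81 and 7.66).

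Clec11a and the EST AI840405 resembled Ttr in size. Clec11a encodes a secreted C-type lectin known as a growth factor of blood and bone precursors. At its probe (spot 21553) the BLA arrays ran from -3.10 to -1.24 with a median of -2.55, and the CeA arrays from -0.79 to 1.11 with a median of -0.08. The nuclei did not overlap, and the contrast was -2.35 ± 0.25 (limma, adjusted p = 1.24e-05). Its pools read 10.04 ± 0.62 in HAB and 12.40 ± 0.54 in LAB in the BLA, and 9.35 ± 0.87 and 9.36 ± 0.73 in the CeA. A further probe of this name, spot 4063, gave a contrast of -0.60 (limma, adjusted p = 0.571). At AI840405, which has no gene name on the array, the BLA arrays ran from -3.66 to -1.84 with a median of -2.74, and the CeA arrays from -1.33 to 0.98 with a median of 0.56. Its contrast was -2.84 ± 0.28 (limma, adjusted p = 4.5e-06), without overlap. By the stricter limit the LAB pool of the BLA was above the empty spots on 9 arrays for Clec11a and 5 for AI840405, against 1 and 0 for the HAB pool and 0 for both CeA pools, so no fold is given for these either.

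Enpp2, Erh and an unnamed EST carried smaller differences at brighter spots, above the empty spots in all 4 pools by the first limit. By the stricter limit the HAB pool of the BLA was above on 6, 6 and 5 of 10 arrays, and its LAB pool on 10, 10 and 8. The HAB pool of the CeA was above on 9, 9 and 8 arrays, and its LAB pool on 9 for each. The folds within the BLA are to be read with this limit. Enpp2 encodes autotaxin, the secreted enzyme that makes lysophosphatidic acid and is abundant in choroid plexus and oligodendrocytes. At its brightest probe (spot 13760) the BLA arrays ran from -2.34 to -1.09 with a median of -1.44, and the CeA arrays from -0.68 to 0.99 with a median of -0.19. The nuclei did not overlap, and the contrast was -1.31 ± 0.20 (limma, adjusted p = 0.00265), from a 2.81-fold lower HAB signal in the BLA. The pools of Enpp2 read 11.20 ± 0.53 in HAB and 12.69 ± 0.37 in LAB in the BLA, and 11.95 ± 0.63 and 12.14 ± 1.08 in the CeA. Of the 4 pools, the HAB pool of the BLA had the lowest mean and its LAB pool the highest, with both CeA pools between them. The other Enpp2 probes gave -0.87 (spot 5362, limma, adjusted p = 0.312) and -0.49 (spot 17305, limma, adjusted p = 0.638). Of these, spot 5362 passed the test within the BLA itself, at -1.11 (limma, adjusted p = 0.00368), and spot 17305 read -0.23 there.

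Erh encodes a small nuclear protein linked to mRNA processing. Its BLA arrays ran from -2.77 to -0.96 with a median of -1.52, and its CeA arrays from -1.02 to 0.56 with a median of -0.60, so that the nuclei overlapped slightly. The contrast was -1.28 ± 0.22 (limma, adjusted p = 0.00811) and the HAB signal in the BLA was 3.16-fold lower. A further Erh probe, spot 10611, gave 0.25 (limma, adjusted p = 0.771). The EST at spot 17100 ran from -2.15 to -0.84 in the BLA, with a median of -1.50, and from -0.68 to 0.10 in the CeA, with a median of -0.37. The contrast was -1.15 ± 0.17 (limma, adjusted p = 0.00263). Its ratio in the supraoptic nucleus (SON), one of the 5 further regions, went the other way, at 0.62 (limma, adjusted p = 0.00262), as did that in the medial amygdala (MeA), at 0.52 (limma, adjusted p = 0.0343).

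**Figure D3:**
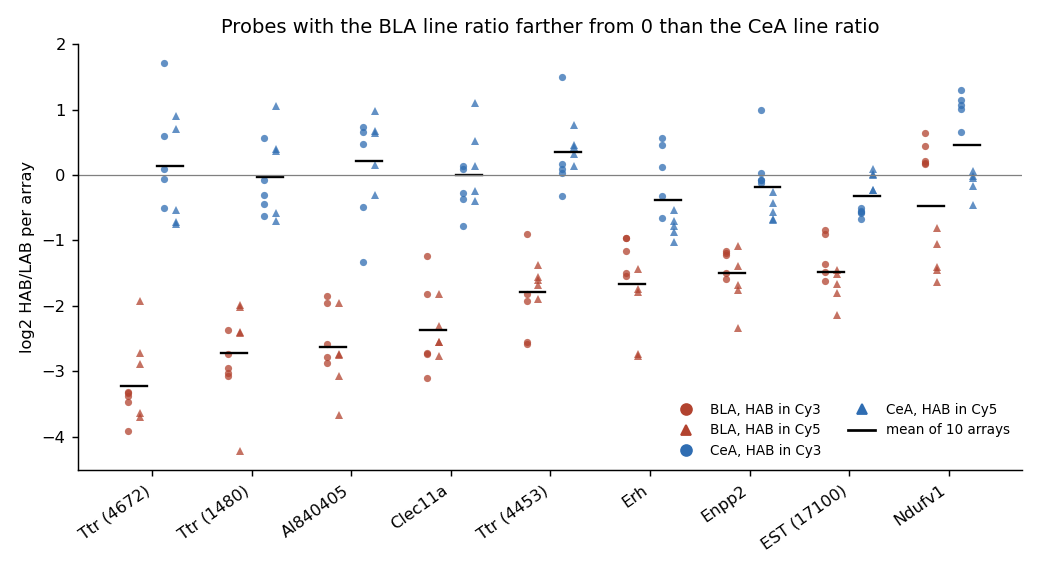
Log2 HAB/LAB of single arrays (y axis) for the probes whose BLA ratio is farther from 0 than their CeA ratio, by nucleus and by the dye of the HAB pool; black bars are means of 10 arrays. The BLA points of the 3 Ttr probes, AI840405 and Clec11a lie below all their CeA points, whereas those of Ndufv1 split by dye.

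The remaining member, Ndufv1, which encodes a core subunit of respiratory complex I, met the test in another way. Its BLA ratio averaged -0.47 and its CeA ratio 0.45, neither of which passed the test alone. With HAB in Cy3 the BLA arrays averaged 0.33, and with HAB in Cy5 -1.27. In the CeA the same orientations averaged 1.04 and -0.13. The BLA average was below the CeA average in both orientations, but within each nucleus the orientations differed by more than the contrast of -0.92 ± 0.18 (limma, adjusted p = 0.018). The other Ndufv1 probe gave -0.54 (limma, adjusted p = 0.696).

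Apart from Ndufv1, these probes also set the BLA apart from the paraventricular nucleus (PVN), nucleus accumbens (NAc), MeA, cingulate cortex (Cg) and SON. In a fit of all 70 arrays, 71 probes (0.311%) differed between the BLA and the mean of these 5 regions, 53 of them lower in the BLA (0.232%). The 8 probes with a called BLA ratio were all among them. The difference from the 5 regions was -3.08, -2.79 and -1.80 for Ttr spots 4672, 1480 and 4453, and -1.70 for Enpp2. It was -1.85 for Erh and -1.82 for the EST at spot 17100. For both of these the CeA was also below the mean of the 5 regions, at -0.56 (limma, adjusted p = 0.00641) and -0.67 (limma, adjusted p = 0.00107). In no single one of these 5 regions was a Ttr probe past the test, and the ratios of spot 4672 there ranged from -0.57 in the Cg to 0.28 in the PVN. This comparison uses the same BLA arrays as the contrast with the CeA and is not separate evidence for it.

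Ttr and Enpp2 belong to a list of 27 genes of choroid plexus and ependyma, of which 16 were measured, each by its brightest probe. These 2 passed the test of the contrast, both lower, and 0 were higher, beside 0.197% lower and 0.0175% higher over all probes. The median contrast over the list was -0.27 beside 0.00 over all probes, with 14 genes below 0 and 2 above. Over all 22824 probes, 11376 lay below 0. Without Ttr and Enpp2, the other 14 genes ranged from -0.57 for Folr1, the folate receptor of the plexus, to 0.26 for 1500015O10Rik, with a median of -0.22, and the smallest of their adjusted p-values was 0.639. Aqp1, a water channel of the plexus, read -0.36, Otx2, a transcription factor of this epithelium, read -0.13, and the claudin gene Cldn2 read -0.37. The summed signal of these 14 genes, on the log2 scale, ranged over arrays from 12.75 to 13.54 in the HAB pool of the BLA and from 13.08 to 13.78 in its LAB pool. In the CeA it ranged from 12.51 to 13.43 in HAB and from 12.73 to 13.28 in LAB. The ranges of all 4 pools overlapped. On at least 5 arrays, 8 and 10 of the 14 genes were above the empty spots in the HAB and LAB pools of the BLA, by the weaker limit. The part of plexus tissue in the Ttr and Enpp2 ratios was not tested.

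Many line differences of the BLA were shared by the CeA. In the fit of the 20 arrays, 24 probes (0.105%) differed between the lines within the BLA, 17 lower in HAB (0.0745%) and 7 higher (0.0307%). Of these 24, 12 also passed within the CeA and in the same direction, 6 lower and 6 higher in HAB, and 0 of those 12 passed the test of the contrast, whose largest absolute value among them was 0.64. The shared probes held Slc25a17, a carrier of the peroxisomal membrane, at -1.35 in the BLA and -1.87 in the CeA. They also held Mmp15, a membrane-bound metalloproteinase, at -1.26 and -1.29, and Glo1, which detoxifies methylglyoxal, at -1.10 and -0.81. Higher in HAB in both nuclei were 2 probes of the Golgi GTPase Rab6, at 2.15 and 2.42 in the BLA and at 2.04 and 2.20 in the CeA. A probe of Syt4, a synaptotagmin of vesicle trafficking, was also higher, at 1.34 and 0.89 (spot 15969). Its values differed by dye orientation. With HAB in Cy3 its arrays ran from 1.61 to 2.88 in the BLA and from 1.30 to 1.75 in the CeA. With HAB in Cy5 they ran from -0.23 to 1.19 and from -0.05 to 0.70. The 5 further Syt4 probes read from -0.03 to 0.26 in the BLA and from -0.12 to 0.15 in the CeA, none past the test. A further 8 of the 24 are the probes of Ttr, Clec11a, AI840405, Enpp2, Erh and the EST above. The remaining 4 passed within the BLA but neither within the CeA nor in the contrast, and these were Enpp2 spot 5362, an EST at spot 371, Ints1 and Klf9. For them a difference between the nuclei was not detectable with these arrays. A contrast that misses the threshold does not show equal ratios, since its median standard error over all probes was 0.28.

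A larger set of 36 probes was led by the CeA. Within the CeA, 294 probes differed between the lines (1.29%), 98 higher in HAB (0.429%) and 196 lower (0.859%). Of the 36, 35 were among those higher in HAB. Their CeA ratios lay between 0.55 and 1.04 with a median of 0.70, and their BLA ratios between -0.57 and -0.18 with a median of -0.36, none past the test in this fit. The nuclei did not overlap for 16 of the 36, and for 26 all 10 CeA arrays were above 0.

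The best known members of this set are the myelin genes Mobp and Cnp, whose probes lie in the same print block of the array (block 27). Mobp encodes a structural protein of central myelin. At its probe spot 13452 the BLA arrays ran from -1.41 to 0.05 with a median of -0.23, and the CeA arrays from 0.40 to 1.27 with a median of 0.67. The nuclei did not overlap, and the contrast was -1.07 ± 0.19 (limma, adjusted p = 0.0105). The pools read 13.88 ± 0.30 in HAB and 14.24 ± 0.27 in LAB in the BLA, and 14.31 ± 0.74 and 13.59 ± 0.92 in the CeA. Cnp encodes an enzyme of non-compact myelin. At its probe spot 13431 the BLA arrays ran from -1.21 to -0.03 with a median of -0.32, and the CeA arrays from 0.04 to 1.60 with a median of 0.68. The contrast was -1.06 ± 0.21 (limma, adjusted p = 0.0212), again without overlap. Further probes of both genes gave other values, from -0.28 to 0.59 for 5 Mobp probes and -0.27 and -0.36 for 2 Cnp probes, none past the test.

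Of 27 named oligodendrocyte genes 24 were measured, and Mobp and Cnp were lower while 0 were higher, beside 0.197% and 0.0175% over all probes. The median contrast of the list was 0.03, and the other 22 genes ranged from -0.78 to 0.56 with a median of 0.07 and a smallest adjusted p of 0.482. Mbp, the myelin basic protein gene, read 0.03. The summed signal of these 22 genes ranged over arrays from 15.01 to 15.71 in HAB and from 14.99 to 15.98 in LAB in the BLA, and from 15.60 to 16.08 and from 15.05 to 16.55 in the CeA.

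The other named members include Slc12a3, a sodium chloride cotransporter known from the kidney (contrast -1.20), Clvs1, a lipid-binding protein of endosomes (-1.30), Chd4, the ATPase of a nucleosome remodelling complex (-1.11), and E2f4, a transcription factor of the cell cycle (-1.14). Rab23, a GTPase that restrains Hedgehog signalling, read -1.02, Capns1, the small subunit of calpain, -0.99, and Exosc9, a subunit of the RNA exosome, -0.96. Nrgn, a calmodulin-binding protein of dendritic spines, read -0.97 ± 0.20 (limma, adjusted p = 0.0304) at spot 17127, where the BLA arrays ran from -1.07 to 0.55 and the CeA arrays from -0.31 to 1.21 and so overlapped. At spot 17127 the BLA arrays ran from 0.14 to 0.55 with HAB in Cy3 and from -1.07 to -0.37 with HAB in Cy5. Further Nrgn probes gave 0.32 and 0.30. Over the whole set, 16 of the 36 carry names that occur on other probes too, 29 probes in all. None of these 29 passed the test, their contrasts ranged from -0.73 to 0.64 with a median of 0.01, and 13 lay below 0. They were also dimmer, with a median log2 signal of 8.89 and a highest of 10.88, so that none was among the brightest 5% of all probes.

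Most of the 36 were bright spots. Their mean log2 signal had a median of 13.54 and ranged from 10.61 to 15.45, beside a median of 8.84 over all probes. Among the brightest 5% of probes (1142), 38 passed the test of the contrast, which is 3.33% beside 0.0507% of the others. Of the 36, 12 lay in print block row 7 of 12. In that row 14 of 1902 probes passed the test (0.736%), and 8 of them lay in block 27, which has 480 probes. The probes of Mobp and Cnp are among those 8. Over the 50 arrays of the 5 further regions, the median pairwise correlation of the 36 probes was 0.56, beside 0.08 for the 229 brightest probes. The part of signal and position in the contrast was not tested.

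**Figure D4:**
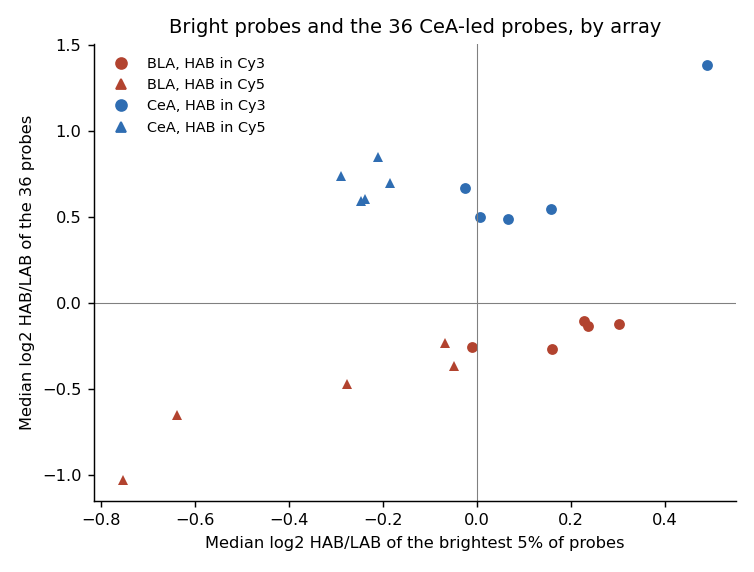
Median log2 HAB/LAB of the 36 probes (y axis) against that of the brightest 5% of all probes (x axis), with a point per array, by nucleus and by the dye of the HAB pool. All 10 CeA arrays lie between 0.49 and 1.39 on the y axis and all 10 BLA arrays between -1.03 and -0.11, while the nuclei overlap on the x axis.

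Single arrays weighed on the count of this set. The median over the 36 probes was -1.03 on the BLA array with HAB in Cy5 replicate 1 and -0.66 on replicate 5 of that orientation, and 1.39 on the CeA array with HAB in Cy3 replicate 4. These are the 3 arrays on which the brightest 5% of probes as a whole were shifted most, by -0.75, -0.64 and 0.49. Without these 3 arrays, 4 of the 36 probes and 7 of the 9 led by the BLA passed the test, and the median contrast of the 36 was -0.88 in place of -1.06. Without the CeA array with HAB in Cy5 replicate 2 alone, 22 of the 36 passed. With the correction for intensity made separately in each print block, 14 of the 36 passed at a median contrast of -0.77, and 8 of the 9 led by the BLA. With the authors' deposited ratios 18 of the 31 that could be tested passed, at a median of -0.59. The set lost every call with median centring alone and with the arrays of either dye orientation alone (0 of 36 in each). On the header day with most arrays of each nucleus, 2 of 36 passed. The median contrast of the 36 was -0.878 with median centring and -1.13 on that day. It was -0.905 with HAB in Cy3 only and -1.235 with HAB in Cy5 only. Of the 9 led by the BLA, 5 passed with median centring, 2 and 4 with HAB in Cy3 or Cy5 only, and 6 on that day.

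The 36 probes were also set against the further regions. They were chosen on a high ratio in these same CeA arrays, so that a higher ratio in the CeA than elsewhere was largely fixed by the choice and is given as a description. In the fit of all 70 arrays, 1091 probes (4.78%) differed between the CeA and the mean of the 5 further regions, 347 of them higher in the CeA (1.52%), and the 36 were all among these. None of the 36 differed between the BLA and the same mean. Their median ratio was 0.05 in the MeA and 0.16 in the PVN, with none past the test there. In the NAc it was -1.09, with 34 of the 36 past the test and lower in HAB (1.49% of all probes were), in the Cg -0.83, with 32 (1.43%, beside 1.66% higher in HAB), and in the SON -0.45, with 21 (0.46%). Of the 7 regions the CeA had the highest ratio for all 36, and the NAc had the lowest for 31. The 4 probes that did not read below -0.5 in both the NAc and the Cg were Nrgn, Ppp2cb, AI838129 and a DNA segment at spot 3931. Ndufv1 fell outside the 36 only narrowly, with -0.47 in the BLA beside 0.45 in the CeA. Its profile was like theirs, at -0.90 in the NAc (limma, adjusted p = 3.06e-05) and -0.77 in the Cg (limma, adjusted p = 0.000512). Its CeA ratio lay above the mean of the 5 further regions by 0.88 (limma, adjusted p = 0.000236).

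**Figure D5:**
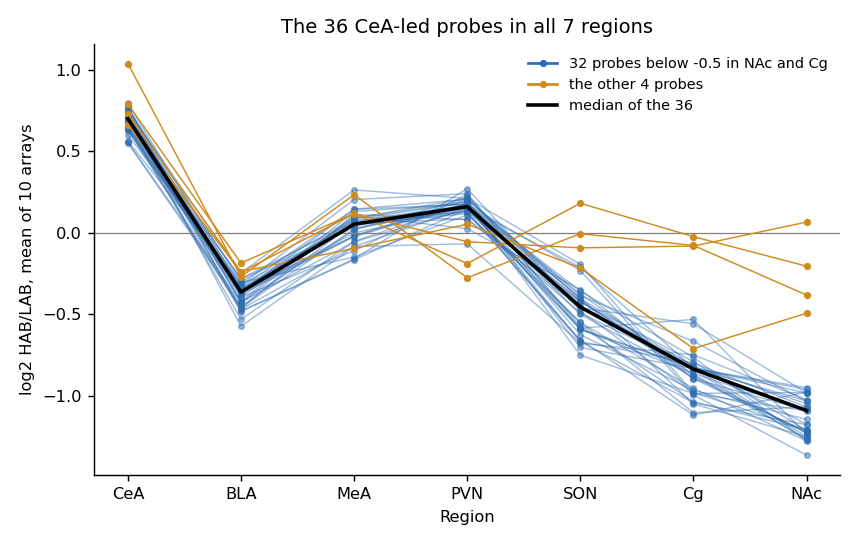
Mean log2 HAB/LAB (y axis) of the 36 probes led by the CeA in the 7 regions (x axis), a line per probe and the median in black. The 32 probes that lie below -0.5 in both the NAc and the Cg rise above 0 in the CeA, and the median falls from 0.70 in the CeA to -0.36 in the BLA.

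In the opposite direction, 4 probes had a higher ratio in the BLA than in the CeA, and 3 of these were lower in HAB within the CeA. Spry2 encodes an inhibitor of receptor tyrosine kinase signalling. Its BLA arrays ran from -0.62 to 1.37 with a median of 0.59, and its CeA arrays from -1.50 to 0.41 with a median of -0.95, for a contrast of 1.27 ± 0.25 (limma, adjusted p = 0.0199). Its BLA values ran from 0.54 to 1.37 with HAB in Cy3 and from -0.62 to 0.64 with HAB in Cy5. At a clone assigned to Pcnx, the pecanex homolog, the BLA arrays ran from -0.46 to 0.64 with a median of 0.21, and the CeA arrays from -1.42 to 0.01 with a median of -1.08. The contrast was 1.15 ± 0.21 (limma, adjusted p = 0.0105). At a clone assigned to Slc10a4, a vesicular transporter-like protein of cholinergic and monoaminergic neurons, the BLA arrays ran from -0.73 to 0.65 with a median of 0.34. All 10 CeA arrays were below 0, from -2.02 to -0.25 with a median of -0.93, for a contrast of 1.10 ± 0.21 (limma, adjusted p = 0.018). The last was a DNA segment of chromosome 10 (D10Ertd641e, spot 6938), at 1.30 ± 0.27 (limma, adjusted p = 0.0367). Its BLA arrays ran from -0.635 to 1.982. A further probe of this segment, spot 8549, gave 0.39 (limma, adjusted p = 0.742). The nuclei overlapped for all 4. Spry2 and the DNA segment were dim, and by the stricter limit neither was above the empty spots on any array in any pool. The Pcnx clone was above that limit on 1 and 0 BLA arrays in HAB and LAB, and on 0 and 2 CeA arrays. The Slc10a4 clone was above it on 0 and 1 BLA arrays and on 3 and 6 CeA arrays. No fold is given for these 4 probes.

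Gene lists were set for amygdala neurons, peptides, transmitters, stress and cell types. Over 30 lists, measured by 571 distinct probes, 0 passed the test as higher and 6 as lower, namely Ttr, Enpp2, Mobp, Cnp, Nrgn and Ndufv1. This is a larger share than the 0.215% over all probes, but the lists were chosen with earlier results of these data known. A gene with several probes also stood by its brightest one, and bright probes passed more often (3.33% of the brightest 5%, 0.0507% of the others). Of 19 genes of basolateral excitatory neurons, Nrgn was lower and the median contrast was -0.17. Of 17 genes of central GABAergic neurons none passed the test, at a median of 0.14. Among these Gad1, the GABA-synthesizing enzyme, read -0.69 (limma, adjusted p = 0.247), Isl1, a transcription factor of striatal neurons, 0.83 (limma, adjusted p = 0.317) and Prkcd, a kinase that marks a class of CeA neurons, -0.55 (limma, adjusted p = 0.397). None of 18 neuropeptide genes passed, with Pnoc, the nociceptin precursor, at 0.99 (limma, adjusted p = 0.397) and Cartpt at 0.73 (limma, adjusted p = 0.461). None of 10 genes of the stress axis passed, and the glucocorticoid target Tsc22d3 read 0.67 (limma, adjusted p = 0.551). The 13 monoamine genes had a median of 0.21, with the serotonin receptor Htr2a at -0.87 (limma, adjusted p = 0.444). The 18 immediate early genes had a median of -0.13, with Ier2 at -0.96 (limma, adjusted p = 0.397).

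Of 38 genes of vesicle release, 29 had a contrast above 0 and the median was 0.10, but none passed the test. Syt9, a calcium sensor of exocytosis, had the highest value at 1.16 (limma, adjusted p = 0.186). Syt4 read 0.45 at spot 15969 (limma, adjusted p = 0.586). Stx3, a syntaxin of membrane fusion, read -0.45 at spot 2347 (limma, adjusted p = 0.719) and -0.26 at spot 5500 (limma, adjusted p = 0.831). The 17 GABA genes and the 19 glutamate genes had medians of 0.17 and 0.05, and the 35 genes of neurotrophins and plasticity kinases -0.06, with Nrgn as their one lower member. Medians were 0.13 for 58 cytosolic ribosomal protein genes, 0.16 for 42 genes of oxidative phosphorylation and 0.14 for 32 proteasome genes, beside 0.00 over all probes.

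Other cell types that a punch could hold were checked in the same way. None of the measured genes of astrocytes (20), microglia (16), endothelium and pericytes (21), leptomeninges (12), blood (4), thalamus (7), hippocampus (5), adjoining striatum (11) or piriform cortex and claustrum (5) passed the test. Their median contrasts lay between -0.22 for hippocampus and 0.12 for thalamus.

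The labelled nuclei were compared with their markers through the mean signal of both pools. Between the nuclei 456 probes differed (2%), 230 higher in the BLA (1.01%) and 226 higher in the CeA (0.99%). Of the 19 basolateral genes, Mef2c (1.85, limma, adjusted p = 0.000234) and Neurod1 (1.40, limma, adjusted p = 0.0119), both transcription factors of excitatory neurons, were higher in the BLA and none was higher in the CeA. Of the 17 central genes none was higher in the CeA, against the label, and Wfs1 (1.09, limma, adjusted p = 0.00893) and Cartpt (1.45, limma, adjusted p = 0.0412) were higher in the BLA. Gad1 differed by -0.10, Prkcd by 0.42 and the somatostatin gene Sst by -0.51, and none of these passed. Ttr spot 4672 was also higher in the BLA (limma, adjusted p = 1.43e-10), but no size is given since its CeA pools were near the empty spots. Arrays of the BLA and the CeA were hybridized apart, so hybridization and nucleus cannot be told apart in these levels, whereas each line ratio was taken within an array.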

How the data were processed

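Per the file headers and the study's methods, the authors scanned each hybridization in the Cy5 and Cy3 channels and quantified spots with a fixed circle. The deposited scanner files give spot and local background intensity of both channels, on a linear scale. The deposited value table holds log2 ratios normalised by the authors, by a global step, a loess over intensity with a span of 40%, and further steps against uneven printing and labelling that the methods do not detail; it served only as an alternative.

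From the intensities, background was corrected by normexp (offset 50), log2 ratios were normalised by loess over intensity within each array (span 40%, control and empty spots at weight 0), and the median of each of 48 print blocks was set to 0. The sign was turned so that every ratio is HAB over LAB, and both dye orientations were weighted equally. limma 3.58.1 in R 4.3.3 fitted 4 group means (nucleus by orientation) over 20 arrays, with Benjamini-Hochberg adjustment over 22824 probes. Control and empty spots (1368) were left out. No 2 arrays held identical values (0 pairs). Pool levels are log2 intensities after loess and Aquantile scaling. The contrast is taken between technical repeats of 1 pool per line and nucleus, so it holds no spread between animals. The code of the fit was tested on simulated data with known contrasts. Background correction shrinks ratios of spots near the empty spots.

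Probe names are those of the array's design. Symbols were looked up in RefSeq tables by name (586 probes) or identifier (6750). The text names up to 10 probes with a gene name per direction with the largest contrast past the test, the 2 genes of each list with the smallest p and any past the test, Ttr, Syt4 and Stx3, and up to 3 markers per nucleus; unnamed ESTs, probes that passed within the BLA alone, further members of the 36 and further probes of a named gene were named after their values were seen. The members and lists were chosen with earlier results of these data known. Where a gene had several probes, the brightest stood for it. On 2 channels of the 20 arrays the dye came from the image name in the header. All columns of the value table were mapped to a sample (0 left over). Probe sequences were not used here. Alternatives to background, normalization, filter, model, block and arrays are given in the closing section.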

Additional observations from a re-analysis of the deposited data

Results flagged for a closer look

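The difference between the nuclei was itself tested, and 49 probes passed. Named among them are Ttr at -3.37 (spot 4672), -2.68 (spot 1480) and -2.14 (spot 4453), AI840405 at -2.84, Clec11a at -2.35, Enpp2 at -1.31, Erh at -1.28, an EST at -1.15 (spot 17100) and Ndufv1 at -0.92. With the CeA ratio farther from 0 were Mobp at -1.07, Cnp at -1.06 and Nrgn at -0.97. Higher in the BLA were a DNA segment of chromosome 10 at 1.30, Spry2 at 1.27, the Pcnx clone at 1.15 and the Slc10a4 clone at 1.10. A closer look could start from Ttr, where 3 probes differed in the same direction, and from Mobp and Cnp, whose further probes did not pass the test. For Ttr, the study itself reports that its follow-up did not bear out a difference in the BLA.

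Single arrays stood far from the other 4 of their group in 8 of 80 groups of 5 arrays examined, by a gap past Dixon's critical share of the group's range; chance flags about 1 in 20 groups. Of these, 5 concerned the CeA array with HAB in Cy3 replicate 4. Its median Cy5 signal was 2480 (the others 320 to 586.8), its median ratio over the 36 probes led by the CeA 1.39 (0.49 to 0.67), its Ttr ratio at spot 4453 1.49 (-0.33 to 0.17), its Enpp2 ratio 1.00 (-0.12 to 0.04) and its Mobp ratio 1.27 (0.40 to 0.65). In the BLA, Ttr spot 1480 read -4.21 with HAB in Cy5 replicate 5 (-2.41 to -1.99) and Ttr spot 4672 read -3.91 with HAB in Cy3 replicate 5 (-3.46 to -3.31). The Slc10a4 clone read -2.02 in the CeA with HAB in Cy5 replicate 5 (-1.02 to -0.88).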

How the results depend on the processing

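Over 36 alternatives the contrast of Ttr spot 4672 stayed between -3.84 and -2.89 and passed the test in each (highest adjusted p = 0.0464, limma). The other Ttr probes, Clec11a and AI840405 each missed it in 1 alternative, arrays of a single dye orientation. Enpp2 missed it in 4 of 37, the EST at spot 17100 in 5 and Erh in 6, and Ndufv1 passed in 28 of 37. No paired fit stands as a main result, since samples with the same replicate number did not deviate together across groups (r from -0.03 to 0.05 in 30 pairs, none over 0.1) and 4 of 20 arrays correlated best with their own number. With the replicate number as a block, 41 probes passed the contrast and 194 the test within the CeA. With number and orientation paired across the nuclei as the block, 6 passed the contrast (1 list gene, and 1 of the 36 probes led by the CeA) and 22 within the CeA.

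Against 49 probes in the contrast, other settings gave 29 (print-tip loess), 6 (median centring), 76 (dim probes left out, 12 higher and 64 lower), 91 (the deposited ratios, 38 higher and 53 lower of 6879 tested, 24 of them among the 49), 126 (all 70 arrays in the fit, 41 higher and 85 lower), 3 (HAB in Cy3 only), 5 (HAB in Cy5 only), 92 (header day as a random block), 8 (the header day with most arrays) and 16 (without 3 arrays, added after seeing the data). Without 1 replicate the count ran from 33 (without CeA HAB in Cy5 replicate 2) to 55. Within the BLA, 24 became 67 with the deposited ratios, 59 with all 70 arrays, 61 and 649 with HAB in Cy3 or Cy5 only and 38 with the day block, and 23 to 27 without 1 replicate. Within the CeA, 294 became 177 without block medians, 564 with the filter, 709 with the deposited ratios, 789 with all 70 arrays, 11 and 570 with HAB in Cy3 or Cy5 only, 699 with the day block and 12 on the largest day, and 109 (without CeA HAB in Cy5 replicate 2) to 342 without 1 replicate. The 6 list genes became 3 with print-tip loess, 2 on the largest day or without 3 arrays, and 1 with median centring, the deposited ratios or either orientation alone, and 3 to 7 without 1 replicate. The 456 level differences became 1347 with the day block and 245 to 613 without 1 replicate. For the line ratios, the day block estimated a correlation of -0.031 between arrays of the same day. The higher counts with that block are not read as stronger results. Of the named probes, Htr2a read 0.07 with HAB in Cy3 only, ribosomal protein S5 -0.006 with HAB in Cy5 only, and, of the 36, the EST at spot 13216 read 0.069 and AI845066 0.081 with the deposited ratios. The causes were not tested. A stricter limit over the empty spots moved the HAB pool of Ttr in the BLA to near that limit.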
